A study of Homo sapiens with 6 samples.

Results

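The clustered histone genes that feed DNA replication were followed in NCI-H1299 cells treated with norepinephrine (NE). Members were taken by name from the deposited table of 26025 genes, as the names of the linker histones H1 and the core histones H2A, H2B, H3 and H4 of the histone clusters HIST1 to HIST4, without the 5 names that mark a pseudogene. This rule used no measured value and gave 54 genes, 5 of H1, 12 of H2A, 18 of H2B, 8 of H3 and 11 of H4. NCI-H1299 is an established human line of non-small cell lung cancer. Bulk RNA was sequenced from 3 Ctrl libraries and from 3 libraries treated with 10 µM NE for 48 h. By the labels the cells were first starved in DMEM and then held in RPMI with reduced serum. The labels name the vehicle of the Ctrl cells both as DMSO and as PBS. The libraries are numbered as replicates, but no label says that they came from separate cultures, so the p-values below measure the spread between these libraries, which may be technical.

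Replication-dependent histone genes are switched on together in S phase, when new DNA must be wrapped into nucleosomes of H2A, H2B, H3 and H4 and bridged by linker H1. Their mRNAs are unusual in that most carry no poly(A) tail and end just after a short stem-loop, which is bound by the stem-loop binding protein SLBP. Some of these genes also give a longer, polyadenylated RNA that runs past the stem-loop, which is known from resting and differentiating cells. How RNA was selected for these libraries, by its poly(A) tail or by removal of ribosomal RNA, is not given in the sources used here.

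Each deposited value was a gene's count divided by the size factor of its library, here called a normalized count. Libraries held 16852751 to 17979206 reads on genes, and between 4036 and 5427 of them fell on the 54 histone genes, or 0.0233% to 0.0315%. Ctrl replicate 3 stood apart, with 7305 genes at 0 against 3954 to 4833 in the other libraries and with 17 histone genes at 0 against 6 to 9. Of the markers of the line, VIM, for the intermediate filament vimentin, was counted between 45300 and 78252. PECAM1, a marker of endothelial cells, was between 16.5 and 36.6. In bulk RNA a smaller share of cells in S phase and less histone RNA per cell cannot be told apart.

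What the histone genes share beyond their names is the stem-loop itself. The motif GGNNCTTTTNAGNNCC was searched on the coding strand of hg38 within 200 bases after the last codon of each annotated transcript. It was found in 48 of 49 protein-coding members (98.0%) and in 2 of 15619 other genes (0.0128%), namely H2AFX, which encodes a histone made in and out of S phase, and TIPARP. The stricter form GGCTCTTTTNAGAGCC stood in 36 of the 49 members and in none of the others. HIST1H2BI was the only protein-coding member without a match. HIST2H2BC and HIST2H2BD, which the current annotation calls transcribed pseudogenes, held the motif too. Neither has an annotated coding sequence, so the whole gene was searched, and the motif stood 455 and 454 bases after the gene's start. The sequences of the 5 genes that changed with NE and of the 2 genes with the highest level are shown because the mRNA end is formed here. The capitals mark the stem-loop and the lower case the next 10 bases, all from hg38 and all 5′ to 3′ on the strand of the gene.
HIST1H1C (chr6:26055734-26055759, minus strand): GGCTCTTTTCAGAGCCaccactgatc
HIST3H2A (chr1:228457359-228457384, minus strand): GGCTCTTTTCAGAGCCacctactatc
HIST2H2BC (chr1:149850292-149850317, minus strand): GGCTCTTTTCAGGGCCatttaaccac
HIST1H2BC (chr6:26123462-26123487, minus strand): GGCTCTTTTAAGAGCCacccagatac
HIST2H2BE (chr1:149886178-149886203, minus strand): GGCTCTTTTCAGAGCCacccacctaa
HIST1H2BK (chr6:27146356-27146381, minus strand): GGCTCTTTTAAGAGCCacttaaatta
HIST1H4I (chr6:27139654-27139679, plus strand): GGCCCTTTTTAGGGCCcctaagcttt
The form in HIST1H1C, HIST3H2A and HIST2H2BE was the most common, present in 28 of the 50 genes with a stem-loop. The form of HIST1H2BC and HIST1H2BK was present in 7 genes. HIST1H1C, which fell, and HIST2H2BE, which rose, thus carried the same stem-loop, and so did HIST1H2BC, which rose, and HIST1H2BK, whose difference did not pass the test.

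Reads were not spread evenly over the 54 genes. Whether RNA selection, which is not given in the sources, shaped these levels and the sums below was not tested. The 5 genes with the highest normalized counts made up 63.5% of the summed count over all members, and the top 10 made up 83.1%. In contrast, 29 genes averaged under 10 normalized counts and 6 of them a mean under 1. Levels between genes were compared per length, as FPKM recomputed from the recovered reads and the merged exons of GENCODE v44, which gave a length for 51 of the 54 genes. The deposited table uses older gene names, so the exons that were counted may differ in length from these. HIST1H2BK, an H2B gene, had the highest level with a mean of 94.5 FPKM and a range of 56.2 to 119 over the 6 libraries. HIST1H4I, an H4 gene, followed with a mean of 64.6 FPKM and a range of 55.8 to 73.2, which overlaps that of HIST1H2BK. The H2A genes HIST1H2AC and HIST1H2AG and the linker gene HIST1H1C followed with means of 30.8, 29.6 and 28.8 FPKM, and their ranges over the libraries overlapped one another. The first gene of class H3 was HIST1H3G with 7.95 FPKM.

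**Figure D1:**
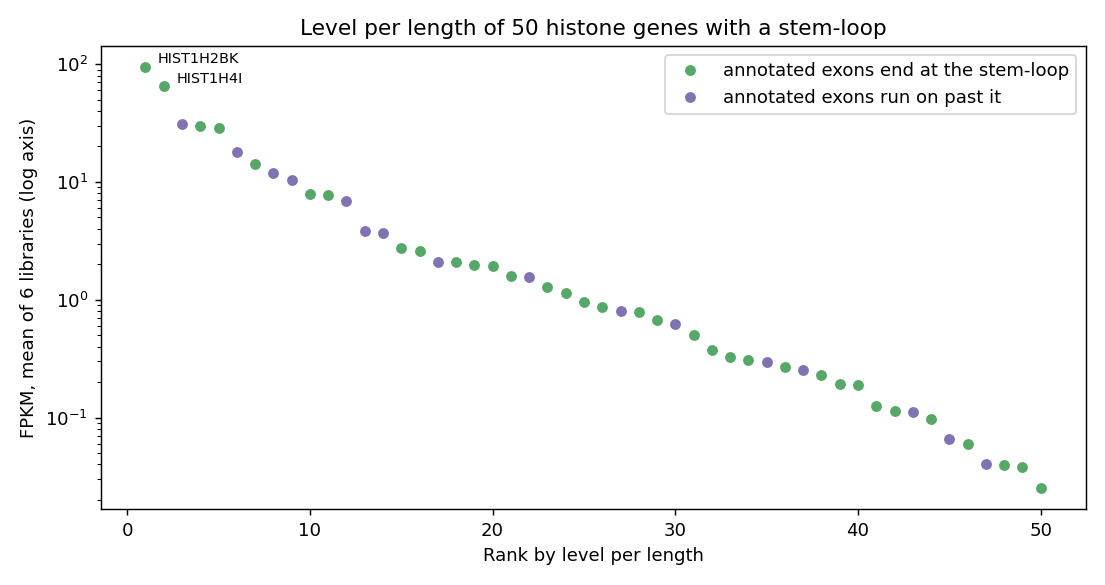
Mean FPKM over 6 libraries (log axis) of the 50 histone genes with a stem-loop, ranked from the highest to the lowest level and coloured by where the annotated exons end. Levels ran from 94.5 FPKM in HIST1H2BK down to 0.0251, and both kinds of gene were spread along the ranks.

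The annotation separates the genes by their 3′ end. In 34 genes the annotated exons ended within 25 bases past the stem-loop, and in 16 genes they ran on beyond it, as in HIST1H2BC with 2426 further exon bases, HIST2H2BE with 1729 and HIST3H2A with 1345. Genes that run on had a median level of 1.83 FPKM, with a range of 0.0407 to 30.8, against 0.831 FPKM and 0.0251 to 94.5 for those that end at the stem-loop, so the ranges overlapped widely. An average of 10 normalized counts or more was reached by 12 of the 16 genes that run on and by 13 of the 34 others, but longer exons also collect more reads at the same level per length. Of the 5 genes that passed the test with NE, HIST1H2BC, HIST2H2BE, HIST2H2BC and HIST3H2A run on and HIST1H1C ends 4 bases past its stem-loop.

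NE and Ctrl libraries were compared for the 25 histone genes that averaged 10 normalized counts or more, using limma on log2(value + 1) over all 15013 genes past that filter. With NE 3 histone genes rose and 2 fell at an adjusted p under 0.05 (Benjamini-Hochberg over all genes tested), and 20 did not pass. Across all genes tested 50.1% passed, 24.6% higher and 25.5% lower. The levels of the histone genes were lower, with a median of 75.7 normalized counts against 371 for all genes tested, and their SE was larger, with a median of 0.264 against 0.173 on the log2 scale. None of them passed the added threshold of a 2-fold change, which 14.0% of all genes tested did, 7.47% higher and 6.55% lower. At an unadjusted limma p under 0.05, 2 of them were at least 2-fold higher (HIST2H2BD and HIST1H2BF), and without Ctrl replicate 3 their log2 differences were 0.68 and 0.90, under that size. The groups did not overlap in 10 histone genes, 8 with all NE libraries above and 2 with all NE libraries below, where 58.6% of all genes tested did not overlap, 29.7% above and 28.9% below. The median log2 difference was 0.26 over the 25 histone genes and 0.01 over all genes tested.

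**Figure D2:**
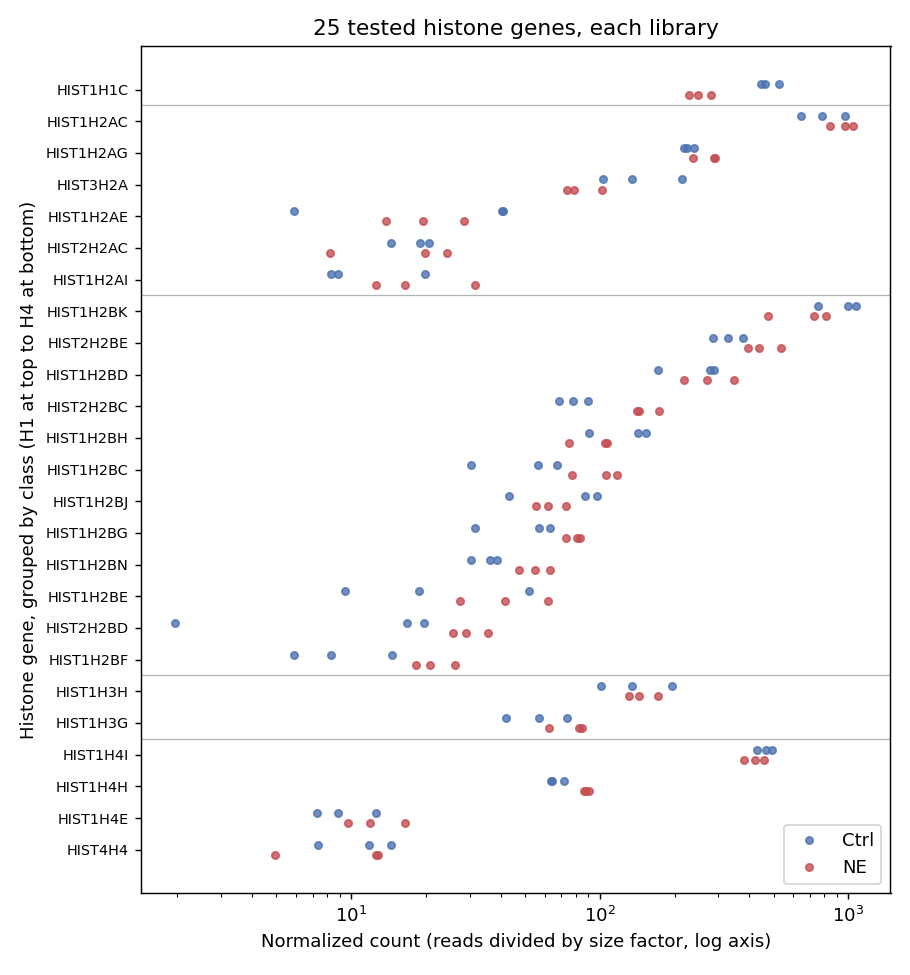
Normalized counts (log axis) of the 25 tested histone genes in each of the 3 Ctrl and 3 NE libraries, grouped by class from H1 at the top to H4 at the bottom. HIST1H1C has all NE libraries below Ctrl, and 7 of the 12 H2B genes have all NE libraries above, beside 29.7% of all genes tested.

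HIST1H1C, which encodes the linker histone H1.2, had the lowest adjusted p of the 25 histone genes and fell. It counted 460.8, 444.9 and 528.2 in the Ctrl libraries and 229.3, 248.9 and 280.5 in the NE libraries. All NE libraries lay below all Ctrl libraries. The mean fell from 477.9 ± 44.2 to 252.9 ± 25.9 (SD, n = 3 each), a log2 difference of -0.92 with an SE of 0.14 and a limma adjusted p of 0.000815. The call held when any 1 library was left out, with differences between -0.99 and -0.84. After the trend of each library with GC content was removed, the difference was -0.43 and the call was lost, with a limma adjusted p of 0.0576. The other linker genes were hardly counted. HIST1H1B, for H1.5, had 22 reads over the 6 libraries, HIST1H1E, for H1.4, had 8, HIST1H1T, a linker gene known from testis, had 3 and HIST1H1D, for H1.3, had 2. The summed count of the 5 linker genes was thus that of HIST1H1C, with 484 ± 39.3 in Ctrl and 259 ± 21.3 in NE libraries, a ratio of 0.535.

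Of the 6 tested H2A genes, HIST3H2A fell and the other 5 did not pass. HIST3H2A counted 135.1, 102.7 and 214.6 in Ctrl libraries and 79.1, 101.7 and 74.0 in NE libraries. The groups did not overlap, but Ctrl replicate 2 and NE replicate 2 lay within about 1 normalized count of each other. The log2 difference was -0.77 with an SE of 0.27 and a limma adjusted p of 0.0422. This call was lost in 5 of the 6 fits that left out 1 library, and held without Ctrl replicate 2 alone. Without Ctrl replicate 3, the highest of them, the difference was -0.48 with an adjusted p of 0.0676. It was also lost after the GC trend was removed, with a difference of -0.46 and an adjusted p of 0.254 in limma. HIST1H2AC, the H2A gene with the highest count, measured 799 ± 165 in Ctrl and 949 ± 99.2 in NE libraries (SD, n = 3 each), a log2 difference of 0.26 with a limma adjusted p of 0.200. It passed the test without Ctrl replicate 3, with a difference of 0.42 and a limma adjusted p of 0.0067. HIST1H2AG had 228 ± 11.4 and 272 ± 30.5, a log2 difference of 0.25 with a limma adjusted p of 0.180. HIST1H2AE counted 40.8, 40.4 and 5.88 in Ctrl and 13.8, 19.4 and 28.3 in NE libraries, a log2 difference of -0.14 with a limma adjusted p of 0.877. Without Ctrl replicate 3 it passed as lower, at -1.01 with a limma adjusted p of 0.0313. The summed count of the 12 H2A genes was 1260 ± 199 in Ctrl and 1381 ± 85.6 in NE libraries, and these ranges overlapped.

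The H2B genes held all 3 genes that rose. Of 12 tested H2B genes, 9 had a positive log2 difference and 7 had all NE libraries above all Ctrl libraries. Beside them, 7590 of all 15013 genes tested had a positive difference and 29.7% had all NE libraries above. In each of the 7 except HIST2H2BC, Ctrl replicate 3 was the lowest Ctrl library. The median log2 difference of the 12 H2B genes was 0.67. The promoters of these genes are shown because most H2B and H2A genes share a sequence there for which the other classes gave no match, the octamer bound by the POU factor OCT1 (gene POU2F1). The octamer ATTTGCAT, the CCAAT box CCAAT and the TATA box TATAAA were searched on both strands in windows of 300 bases around the RefSeq start (GRCh38.p14), which were matched for 45 of the 54 genes. None of the 3 motifs contains another, but copies may overlap. The octamer was found in 12 of 16 H2B and 7 of 9 H2A promoters and in no promoter of an H1, H3 or H4 gene, against 1.77% of 35116 promoters in all. The CCAAT box stood in 36 of the 45 promoters against 34.6% of all, and in 1 of 10 H4 promoters. The TATA box stood in 28 of the 45 against 11.5% of all. The 150 bases before the start follow, 5′ to 3′ on the strand of the gene, with matches to the 3 motifs on either strand in capitals.
HIST1H2BC (chr6:26123927-26124076, minus strand): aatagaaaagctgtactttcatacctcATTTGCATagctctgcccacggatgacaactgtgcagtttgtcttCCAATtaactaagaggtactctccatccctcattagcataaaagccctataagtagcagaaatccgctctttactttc
HIST2H2BE (chr1:149886683-149886832, minus strand): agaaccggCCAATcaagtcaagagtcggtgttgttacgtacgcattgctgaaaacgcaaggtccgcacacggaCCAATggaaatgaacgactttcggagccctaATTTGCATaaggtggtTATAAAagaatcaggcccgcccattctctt
HIST1H2BG (chr6:26216689-26216838, minus strand): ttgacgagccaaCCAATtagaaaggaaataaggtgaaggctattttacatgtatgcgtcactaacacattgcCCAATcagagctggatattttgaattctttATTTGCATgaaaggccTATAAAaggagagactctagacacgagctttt
HIST1H2BF (chr6:26199366-26199515, plus strand): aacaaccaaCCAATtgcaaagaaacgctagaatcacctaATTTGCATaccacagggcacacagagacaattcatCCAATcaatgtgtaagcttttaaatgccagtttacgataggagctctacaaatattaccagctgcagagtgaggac
HIST1H2BK (chr6:27146859-27147008, minus strand): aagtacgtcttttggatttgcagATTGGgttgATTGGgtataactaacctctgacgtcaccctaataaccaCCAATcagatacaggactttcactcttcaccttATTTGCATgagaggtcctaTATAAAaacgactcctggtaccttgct
HIST1H1C (chr6:26056471-26056620, minus strand): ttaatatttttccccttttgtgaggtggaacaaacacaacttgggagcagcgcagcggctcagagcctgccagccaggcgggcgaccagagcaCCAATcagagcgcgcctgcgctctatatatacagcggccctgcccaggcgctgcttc
The first 4 are H2B genes with all NE libraries above Ctrl, HIST1H2BK is the H2B gene with the lowest log2 difference, and HIST1H1C is the linker gene that fell. All 5 H2B promoters shown hold the octamer and a CCAAT box. HIST1H2BN, which also had all NE libraries above Ctrl, and HIST1H2BD had no octamer in the window. The HIST1H1C promoter shown holds 1 CCAAT box.

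HIST2H2BC counted 90.1, 68.4 and 78.4 in Ctrl libraries and 172.9, 144.3 and 141.6 in NE libraries, so that the lowest NE library lay well above the highest Ctrl library. Its mean rose from 79.0 ± 10.8 to 153 ± 17.3 (SD, n = 3 each), a log2 difference of 0.95 with an SE of 0.19 and a limma adjusted p of 0.00296. The call held without any 1 library and after the GC trend was removed, where the difference was 1.54. The gene lies on chromosome 1 from 149850193 to 149850772 and is annotated as a transcribed pseudogene with the symbol H2BC20P, and its exon is shared with another annotated gene on the same strand. HIST2H2BD, the second such pseudogene, counted 16.8, 19.7 and 1.96 in Ctrl libraries against 35.6, 29.1 and 25.6 in NE libraries. All its NE libraries lay above Ctrl, and the log2 difference was 1.58 with an SE of 0.70, which did not pass with a limma adjusted p of 0.0852. Without Ctrl replicate 3, its lowest library, the difference was 0.68. Both pseudogenes lie in the same cluster on opposite strands, and how well reads can be told apart between them was not tested.

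HIST1H2BC, which lies on chromosome 6 from 26086317 to 26123926, counted 56.5, 67.4 and 30.4 in Ctrl libraries and 77.1, 105.6 and 117.0 in NE libraries. All NE libraries lay above Ctrl, with Ctrl replicate 3 the lowest. It rose from 51.4 ± 19.0 to 99.9 ± 20.5 (SD, n = 3 each), a log2 difference of 0.997 with an SE of 0.32 and a limma adjusted p of 0.0264. The call was lost without NE replicate 2 (limma adjusted p of 0.0842) and without NE replicate 3 (0.0993), and without Ctrl replicate 3 it held with a difference of 0.66. The exons of HIST1H2BC overlap those of HFE on the opposite strand, and whether reads were counted by strand is not given in the sources used here. HFE itself counted 247 in Ctrl and 260 in NE libraries on average, a log2 difference of 0.08 with a limma adjusted p of 0.698.

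HIST2H2BE, a gene of the second cluster on chromosome 1 from 149884459 to 149886682, counted 328.8, 376.4 and 285.2 in Ctrl libraries and 395.3, 436.8 and 536.4 in NE libraries. It rose from 330 ± 45.6 to 456 ± 72.5 (SD, n = 3 each), a log2 difference of 0.46 with an SE of 0.16 and a limma adjusted p of 0.0388. The groups did not overlap, yet the call was lost without Ctrl replicate 1, NE replicate 2 or NE replicate 3, with limma adjusted p-values of 0.0824, 0.0875 and 0.148. Of the remaining H2B genes, HIST1H2BG, HIST1H2BN and HIST1H2BF also had all NE libraries above Ctrl, with log2 differences of 0.70, 0.63 and 1.17 and limma adjusted p-values of 0.0678, 0.0620 and 0.0588. HIST1H2BF was counted low, at 14.7, 8.30 and 5.88 in Ctrl and 20.8, 26.2 and 18.3 in NE libraries, and without Ctrl replicate 3 its difference was 0.90. HIST1H2BE counted 9.42, 18.7 and 51.9 in Ctrl libraries and 41.5, 62.0 and 27.4 in NE libraries, so the groups overlapped. Its log2 difference of 0.94 had a limma adjusted p of 0.197, and without Ctrl replicate 3, its highest Ctrl library, it passed at 1.57 with a limma adjusted p of 0.0055.

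HIST1H2BK, the histone gene with the highest FPKM, had the lowest log2 difference of the tested H2B genes. It counted 1000.1, 1077.4 and 756.5 in Ctrl libraries and 476.3, 724.5 and 811.4 in NE libraries, so the groups overlapped. The log2 difference was -0.51 with an SE of 0.21, and the limma adjusted p was 0.0684. Without Ctrl replicate 3 the difference was -0.67 with a limma adjusted p of 0.0042, and after the GC trend was removed it was 0.04. HIST1H2BH and HIST1H2BJ also had negative differences, -0.41 and -0.18, which did not pass, and both passed without Ctrl replicate 3, at -0.65 and -0.54. HIST1H2BD, at 246 ± 64.5 in Ctrl and 278 ± 64.8 in NE libraries, had a log2 difference of 0.19 with a limma adjusted p of 0.532. The summed count over all 18 H2B genes was 2018 ± 363 in Ctrl and 2074 ± 338 in NE libraries, a ratio of 1.03.

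**Figure D3:**
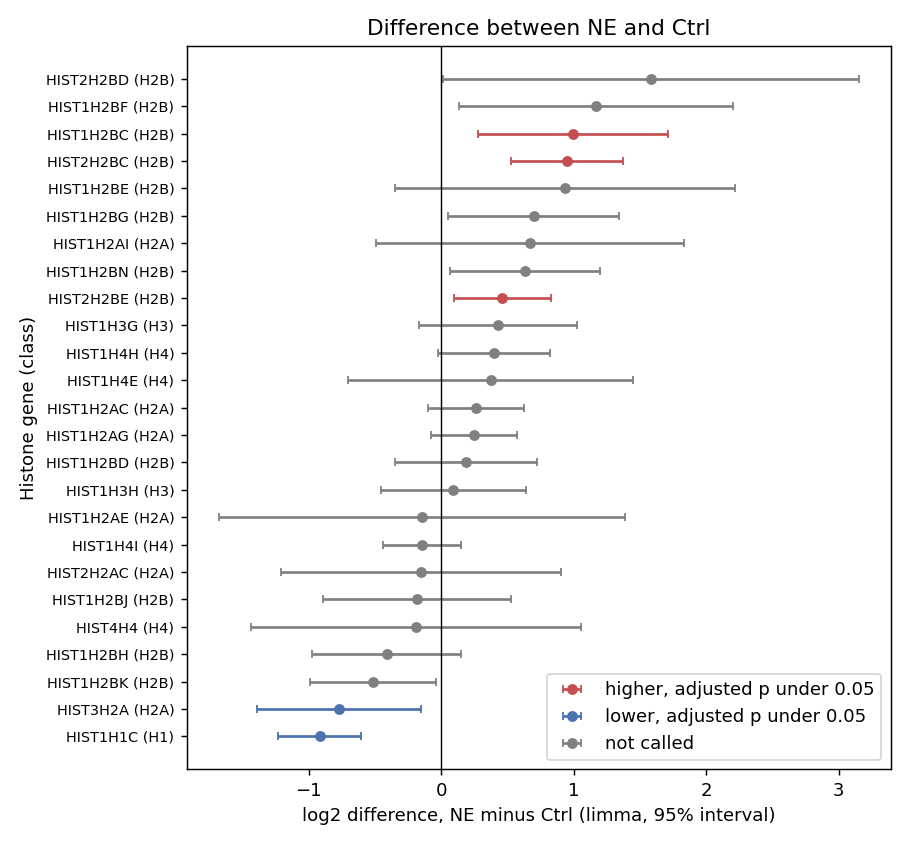
Log2 difference between NE and Ctrl of the 25 tested histone genes with its 95% interval from limma, ordered by size and coloured by call. HIST2H2BC, HIST1H2BC and HIST2H2BE are higher, HIST1H1C and HIST3H2A lower, and the intervals of low genes such as HIST2H2BD and HIST1H2AE are the widest.

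No tested H3 or H4 gene passed the test in limma with the settings above, in edgeR or in DESeq2, and none had an unadjusted limma p under 0.05. HIST1H3H, the H3 gene with the highest count, had a log2 difference of 0.09 with an interval of -0.46 to 0.64. HIST1H3G, for H3, counted 57.5 ± 15.9 in Ctrl and 76.6 ± 12.5 in NE libraries, a log2 difference of 0.43 with a limma adjusted p of 0.201, and it passed after the GC trend was removed, at 0.98 with a limma adjusted p of 0.0205. HIST1H4I, for H4, counted 466.0, 493.6 and 427.3 in Ctrl libraries and 379.4, 420.3 and 456.9 in NE libraries. The groups overlapped, and the log2 difference of -0.14 had a 95% interval of -0.43 to 0.15. After the GC trend was removed HIST1H4I passed in the other direction, at 0.44 with a limma adjusted p of 0.0152. HIST1H4H, for H4, had tight replicates of 63.9, 64.3 and 71.5 in Ctrl and 87.9, 86.2 and 90.5 in NE libraries. Its exons overlap an unnamed gene on the opposite strand. The groups did not overlap, with a log2 difference of 0.40 and a limma adjusted p of 0.101, and it passed in limma without a trend in eBayes, with an adjusted p of 0.0244. HIST4H4, the only member on chromosome 12, counted 11.2 ± 3.63 and 10.1 ± 4.48, a log2 difference of -0.19 with a limma adjusted p of 0.795. Of the 4 tested H4 genes, 2 had a positive and 2 a negative difference.

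Summed over all 54 members, the histone count differed between the groups by less than the spread. The sum was 4568 ± 172 normalized counts in Ctrl and 4508 ± 489 in NE libraries (SD, n = 3 each), a ratio of 0.987. Without the 5 genes of the highest counts it was 1554 ± 63.8 and 1760 ± 86.7, a ratio of 1.13, and all NE libraries lay above Ctrl. Genes whose exons end at the stem-loop summed to 2518 ± 232 in Ctrl and 2053 ± 260 in NE libraries, a ratio of 0.815 with overlapping groups. Genes whose exons run on summed to 2035 ± 168 and 2450 ± 227, a ratio of 1.20, and the NE libraries, from 2215 to 2668, lay above the Ctrl libraries, from 1853 to 2183. With 3 libraries a group and sums that a few high genes dominate, these ratios are given without a test. Of the 6 members known to give polyadenylated RNA, HIST2H2BE rose, HIST1H1C fell and HIST1H2AC, HIST1H2BD, HIST1H2BK and HIST4H4 did not pass. The median log2 difference of these 6 was -0.0002.

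By position, 40 of the genes lie in 2 blocks on chromosome 6. The first block, from 26020451 to 26285638, holds 23 genes, of which 12 were tested, with HIST1H2BC higher, HIST1H1C lower and a median log2 difference of 0.39. The second block, from 27125897 to 27893891, holds 17 genes, of which 7 were tested and none passed in limma, with a median of 0.09. HIST1H2BK and HIST1H2BN in this block had an unadjusted limma p under 0.05, and HIST1H2BK passed as lower in DESeq2. Calls were made in the HIST2 cluster on chromosome 1 for HIST2H2BC and HIST2H2BE among 4 tested genes. Many H2A and H2B genes lie head to head and share the sequence between their starts. By the outermost annotated start of each gene, 9 pairs of members had starts no more than 1000 bases apart. The ratio of the levels per length within a pair varied widely between the pairs. HIST1H2BG and HIST1H2AE, 233 bases apart, averaged 7.81 and 2.77 FPKM. HIST1H3J and HIST1H2BO, 319 bases apart by that rule, averaged 0.374 and 0.790 FPKM. HIST1H3J is annotated up to 27893106, while its stem-loop lies at 27890310 to 27890335. Its exons overlap those of H2AC17 on the same strand, so this distance and level may not be those of its H3 transcript. HIST1H2BK averaged 94.5 FPKM while HIST1H2AH, whose start is 251 bases away, averaged 0.126 FPKM. HIST2H2BE and HIST2H2AC, 236 bases apart, averaged 10.4 and 2.08 FPKM. In the pair of HIST1H2BC and HIST1H2AC, 219 bases apart, the log2 differences were 0.997 and 0.264. In the pair of HIST1H2BJ and HIST1H2AG, 248 bases apart, they were -0.18 and 0.25.

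Differences with NE across all genes moved with GC content, and 44 of the 51 histone genes with a known GC content lay above the median of all tested genes. Over the 14955 tested genes with a GC content the Spearman correlation of the log2 difference with GC was -0.644, a description over genes that share the same 6 libraries. Over the 25 histone genes it was -0.0196. The tested histone genes had a median GC content of 54.8% against 47.5% for all tested genes, and the members ranged from 40.0% to 64.4%. After the GC trend of each library was removed, 9 histone genes passed as higher and none as lower, where 32.2% of all genes passed, 14.6% higher and 17.7% lower. With exon length removed as well, the same counts were 9 and 0, where 31.9% of all genes passed, 13.6% higher and 18.2% lower. The 9 were HIST1H2AG, HIST1H2BC, HIST1H2BF, HIST1H2BG, HIST1H3G, HIST1H4I, HIST2H2BC, HIST2H2BD and HIST2H2BE, so the 3 genes that rose in the first fit were kept and both falls were lost. At least 2-fold higher with GC content removed were HIST1H2BC, HIST1H2BF, HIST2H2BC and HIST2H2BD, at log2 differences of 1.04, 1.59, 1.54 and 2.23. With exon length removed as well, HIST1H3G and HIST1H2BG also reached that size, at 1.02 and 1.01. By edgeR's quasi-likelihood test and by DESeq2 on the recovered reads no histone gene was 2-fold changed, as in the first fit. Without Ctrl replicate 3, 5 histone genes were higher and 5 lower, where 64.4% of all genes passed, 31.9% higher and 32.5% lower.

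**Figure D4:**
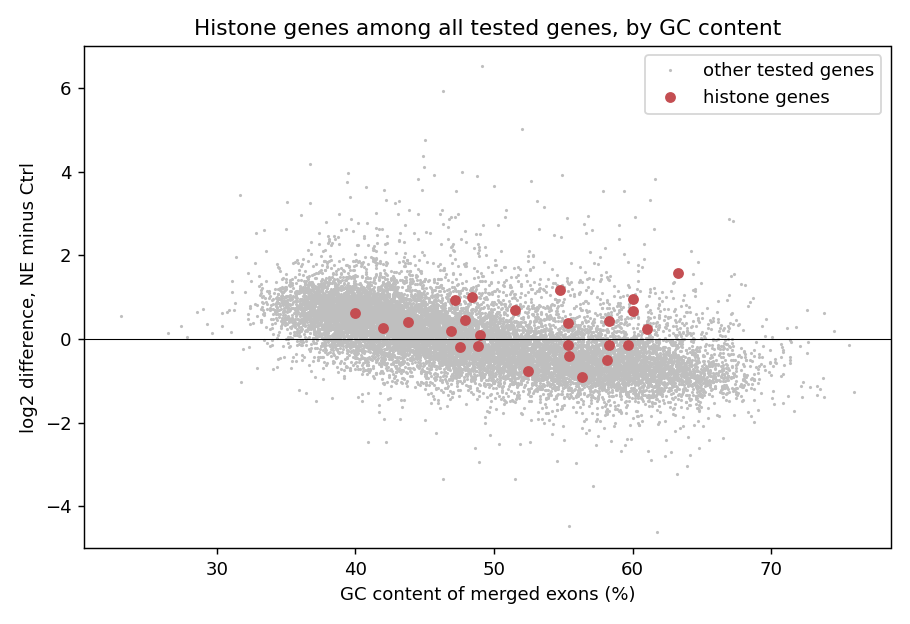
Log2 difference between NE and Ctrl against the GC content of the merged exons (%) for all tested genes (grey) and the 25 tested histone genes (red). The grey cloud falls from left to right with a Spearman correlation of -0.644, whereas the histone genes show -0.0196.

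The genes that make and process histone mRNA moved in both directions. Of 21 such genes, all tested, 6 rose and 8 fell, beside 24.6% higher and 25.5% lower of all genes tested, with a median log2 difference of -0.09. NPAT, the coactivator that gathers at histone gene clusters, rose from 334 ± 70.8 to 586 ± 65.5 normalized counts (SD, n = 3 each), a log2 difference of 0.83 with a limma adjusted p of 0.0036. CASP8AP2, a partner of NPAT in histone locus bodies, rose by 0.98 on the log2 scale, and POU2F1, the octamer factor, by 0.91. LSM10, a subunit of the U7 particle that cuts the histone pre-mRNA, fell by 0.91, and SRRT, which links the RNA cap to that processing, fell by 0.87. SLBP, the stem-loop binding protein, counted 2292 ± 191 in Ctrl and 1858 ± 180 in NE libraries, and its log2 difference of -0.30 did not pass with a limma adjusted p of 0.0522. After the GC trend was removed 1 of these 21 genes was higher and 5 were lower, beside 14.6% higher and 17.7% lower of all genes. NPAT, CASP8AP2 and LSM10 then lost their calls, at log2 differences of 0.20, 0.36 and -0.37 with limma adjusted p-values of 0.196, 0.0558 and 0.0848. POU2F1 and SRRT kept theirs, but lost them with exon length removed as well, at 0.34 and -0.35.

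Of 22 histone chaperones and enzymes that modify new histones, 7 rose and 9 fell, beside the same shares of all genes, with a median of -0.25. ATRX, which with DAXX places the variant H3.3, rose by 1.17 on the log2 scale, and ANP32E, a chaperone of H2A.Z, rose by 0.80. ASF1B and CHAF1B, which hand new H3 and H4 to replicated DNA, fell, with log2 differences of -0.999 and -0.881. After the GC trend was removed 1 was higher and 5 were lower, beside 14.6% higher and 17.7% lower of all genes. ANP32E then lost its call at 0.13. Of 11 histone variants that are also made outside S phase none rose and 6 fell, beside 24.6% higher and 25.5% lower of all genes. Their median was -0.43, and 7 were lower after the GC trend was removed, beside 17.7% of all genes. H1FX, the linker variant H1.10, fell by 1.07, H2AFX by 0.97, H2AFY2, for macroH2A2, by 0.93 and H2AFZ, for H2A.Z, by 0.70. Of these, H2AFX (current symbol H2AX) lost its call after the GC trend was removed, at -0.29 with a limma adjusted p of 0.101. Among 31 genes of DNA replication and S phase 1 rose and 22 fell, beside the same 24.6% and 25.5% of all genes. At least 2-fold lower were 10 of them, beside 6.55% of all genes, and the median was -0.67. MCM5, MCM2 and MCM7, subunits of the replicative helicase, fell by 1.38, 1.31 and 1.29, and CDT1, which loads it, fell by 1.26. Without the GC trend 20 of the 31 were lower and none higher, beside 17.7% lower and 14.6% higher of all genes. Whether a change in S phase has a part in the histone gene values was not tested.

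The 29 histone genes under the filter add 56 reads at most each over the 6 libraries and were not tested in the first fit. The most counted was HIST2H2BF with a mean of 9.08 normalized counts. HIST1H4J counted 7.33, 6.22 and 30.4 in Ctrl and 0, 3.87 and 4.57 in NE libraries, so that Ctrl replicate 3 carried most of its Ctrl mean. HIST1H2AJ averaged 11.2 in Ctrl and 4.85 in NE libraries. HIST2H4A and HIST2H4B are near-identical copies, so reads between them cannot be assigned with certainty, and with 8 and 22 reads neither was tested in that fit. HIST1H2BI, the gene without a stem-loop match, had 13 reads in all, and none of them in an NE library.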

How the data were processed

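Libraries were sequenced on an Illumina HiSeq as paired reads. The authors aligned them to hg38 with HISAT2 2.0.5 and counted them per gene with featureCounts 1.5.0-p3. The signal deposited by the authors is a count per gene divided by the library's size factor, although the study's methods describe FPKM. The value of 1 read was read from each column, and 100% of values were whole multiples of it within 0.01. No column was left out.

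The deposited values were compared with limma 3.58.1 (lmFit, eBayes with trend) on log2(value + 1) over genes with a mean of at least 10, with Benjamini-Hochberg adjustment, which understates the change of low genes. Members and gene lists were chosen with earlier results of these data known. Named genes were all called members, the 5 with the highest FPKM, linker genes, members known for polyadenylated RNA, up to 4 called genes of each list, NPAT and SLBP. One marker of the line is not reported here. Other histone genes were named after their values were seen. Of 4 genes known mainly from testis, only HIST1H1T was in the table. Lengths, GC content and overlaps came from GENCODE v44, matched for 25813 of 26025 genes, and promoters from RefSeq. The GC trend was fitted in each library as a natural spline with 5 degrees of freedom. On the whole reads, edgeR 4.0.16 and DESeq2 1.42.0 were run as alternatives. All fits except those that left out a library were tested on simulated counts, which held no GC trend. Molecular identifiers were not used, so independent molecules may be fewer than reads.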

Additional observations from a re-analysis of the deposited data

How the results depend on the processing

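Of 20 alternative settings, edgeR, TMM scaling, a pseudocount of 0.1 or 5 and a minimum mean of 50 gave the same 3 higher and 2 lower histone genes. DESeq2 added HIST1H2BK as lower. HIST2H2BE lost its call without a trend in eBayes (adjusted p 0.066 in limma) and with quantile normalization (0.0536). Higher histone genes numbered 5 without a trend in eBayes, of which 2 were shared with the main 3, and 9 with GC content, or GC content and length, removed, and lower ones numbered 1 with a minimum mean of 1, with no filter and without a trend, and 0 with either GC correction. Genes 2-fold higher numbered 1 with a pseudocount of 0.1, with TMM scaling and without a trend, 2 with voom, 4 with GC content removed and 6 with GC content and length removed. Of the genes that make, process and handle histones, 13 were higher in the main fit and 2 with either GC correction. The shares of all genes higher were 24.6% in the main fit, 14.6% with GC content removed and 13.6% with GC content and length removed. With GC content removed, the log2 difference changed sign for HIST1H2AC (-0.16), HIST1H2BK (0.035), HIST1H4I (0.44), HIST1H2BH (0.0418), HIST1H2AE (0.30) and HIST2H2AC (0.40), and with GC content and length removed it was -0.0295, 0.070, 0.46, 0.0785, 0.35 and 0.43 in the same order, and the cause was not tested. Leaving out each library in turn gave 1 to 5 higher and 1 to 5 lower histone genes, 0 to 3 at least 2-fold higher, 0 to 1 at least 2-fold lower, a median log2 difference of 0.20 to 0.34, and 8 to 15 higher and 21 to 29 lower genes of the histone pathways. Over these fits the sign changed for HIST1H3H (-0.13 to 0.34), HIST1H2AE (-1.01 to 0.29), HIST1H2BJ (-0.54 to 0.0408), HIST1H2BD (-0.051 to 0.35), HIST4H4 (-0.44 to 0.21) and HIST2H2AC (-0.44 to 0.28). Correlations of same-numbered deviations were -0.163, 0.0799 and -0.151, and with 3 libraries a group they cannot show whether the replicate numbers pair the libraries. A fit with the replicate number as a block called 1 histone gene higher (HIST2H2BC) and 1 lower (HIST1H1C), and 10 higher and 22 lower pathway genes. Depth limits the 29 genes under 10 normalized counts, which the main fit did not test. With no filter, where all 54 members were tested, none of these 29 passed.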
